A study of Homo sapiens with 12 samples.

Results

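The mammalian circadian clock is a loop of transcription factors that keeps daily time in nearly every cell, and 10 genes of that loop were followed here in human breast tumours grown in mice. They are ARNTL (BMAL1), the repressors PER1, PER2, PER3, CRY1 and CRY2, the nuclear receptors NR1D1 and NR1D2, the output factor DBP and the repressor BHLHE40. The genes were taken by symbol from the deposited table, which held all 10 among 25369 gene symbols, and all 10 passed the filter on low counts. MDA-MB-231, an established human line derived from triple-negative breast cancer, was placed in the inguinal mammary fat pad (right side) of mice, with 10 mice per group in the protocol, and compounds were given intraperitoneally. Control mice had the vehicle alone. Mice of the p38i group had SB202190 (1 mg/kg/day), which inhibits p38 MAP kinases, and mice of the EZH2i group had EPZ-6438 (10 mg/kg/day, also written EPZ-6428 in the labels), which inhibits the methyltransferase EZH2. Combination mice had SB202190 and EPZ-6438 together. All groups shared the cell line and the injection site, and each of the 4 groups had 3 tumour libraries of RNA-seq, 12 in all. The labels give no strain, age, light schedule, duration of treatment or hour of tumour collection.

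In this loop ARNTL pairs with CLOCK or NPAS2, binds the E-box motif and switches on the PER, CRY, NR1D and DBP genes. The PER and CRY proteins then block that pair, and NR1D1 and NR1D2 switch off ARNTL itself through the ROR element. As a result ARNTL peaks roughly opposite in time to NR1D1, NR1D2, DBP and the PER genes, with CRY1 later than these. Samples taken at different clock phases can therefore differ in several of these genes together and with opposite signs. In cultured cancer lines the loop is often damped or out of step between cells. PER1 is also known as a direct target of the glucocorticoid receptor, and BHLHE40 as a gene induced by low oxygen.

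The control sequences of the loop were looked up in RefSeq promoter windows of GRCh38.p14, each running from 250 bases before to 50 bases after a gene's start, and all 10 genes matched, with 14 windows. The E-box CACGTG was present in 3 of the 14 windows (PER1, NR1D2 and BHLHE40), against 7.26% of all 35116 windows. Its variant CACGTT, the E-prime box, was present in 4 of the 14 (PER2, CRY1, CRY2 and NR1D1), against 5.34% of all windows. The D-box bound by DBP, TTATGTAA or TTACGTAA, was present in 3 of the 14 (PER2, PER3 and NR1D2), against 1.01%. The core of the ROR element, TAGGTCA or TGGGTCA, was present in 3 of the 14 (ARNTL, CRY2 and NR1D2), against 5.69%. The cAMP element TGACGTCA was in none of the 14 windows and in 1.85% of all. Both strands were searched, and no match overlapped another. A match describes the letters of the window only. The 250 bases before the start are shown for CRY1 (chr12:107093550-107093799, minus strand) and PER1 (chr17:8152405-8152654, minus strand), the members with the largest differences in size between treated and control tumours, with the E-prime box and the E-box in capitals.
CRY1: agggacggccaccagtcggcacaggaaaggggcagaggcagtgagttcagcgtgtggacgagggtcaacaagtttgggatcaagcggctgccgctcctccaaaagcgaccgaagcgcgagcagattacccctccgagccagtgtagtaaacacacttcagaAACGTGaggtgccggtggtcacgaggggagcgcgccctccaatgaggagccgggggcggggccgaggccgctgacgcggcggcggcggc
PER1: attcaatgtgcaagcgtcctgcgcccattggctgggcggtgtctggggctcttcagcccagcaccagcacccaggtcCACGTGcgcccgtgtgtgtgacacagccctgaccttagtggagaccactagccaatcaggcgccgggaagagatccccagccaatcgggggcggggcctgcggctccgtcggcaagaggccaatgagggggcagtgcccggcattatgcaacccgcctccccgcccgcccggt

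Shorter stretches show the other kinds of site, each with its motif in capitals. They are the ROR core of ARNTL (chr11:13277810-13277836, plus strand), through which NR1D1 and NR1D2 are known to act, the D-box of PER2 (chr2:238288596-238288623, minus strand) and an E-box and the ROR core of NR1D2 (chr3:23946006-23946031 and chr3:23945978-23946004, plus strand).
ARNTL, ROR core: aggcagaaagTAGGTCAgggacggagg
PER2, D-box: ccgctgcggcTTACGTAAccgccgccgg
NR1D2, E-box: gccgcagggaCACGTGggggcggggg
NR1D2, ROR core on the other strand: ctcggctcccTGACCCAcattccccgg

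Library totals ran from 2208771 counts (EZH2i 6-1) to 4467942 (combination 9-1). Values are CPM, counts scaled to the TMM-scaled library size. Tests are edgeR's quasi-likelihood test with Benjamini-Hochberg adjustment over 12514 genes and a threshold of 0.05, and "treated" is the average of the 3 treated groups. On the first principal component of the 500 most variable genes (32.6% of their variance) control 1-1 stood at -34.2 and control 1-3 at -18.9, while control 2-1 (3.32) lay among the treated libraries (-7.07 to 18.4). All 8 markers of MDA-MB-231 cells were found, at a summed 8920 to 11900 CPM per library. Markers of macrophages (11.7 to 20.1 CPM) and endothelium (9.99 to 21.8 CPM) were low in all libraries. Those of fibroblasts summed to 284 to 1120 CPM and those of luminal or epithelial cells to 563 to 1330 CPM. The handling of mouse reads is not given in the sources used here, so marker sums do not give the share of mouse host cells. Skeletal muscle markers summed to 1600 CPM in p38i col6, and to at most 155 CPM in the other libraries. In bulk tumours, fewer cells of a type and less RNA per cell cannot be told apart, and neither can a stopped clock and cells that run out of step.

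Of the 10 clock genes, 1 passed the test between treated and control tumours: CRY1, a core repressor of the loop, rose 1.79-fold. In this comparison 3.08% of all genes passed. PER1, another repressor, was lower in all 9 treated libraries than in any control library, with an adjusted p of 0.069. The genes that separate clock phases most, ARNTL on one side and NR1D1, NR1D2 and DBP on the other, did not pass the test, and their groups overlapped between treated and control tumours. No member passed in p38i, EZH2i or the combination against control by edgeR's quasi-likelihood test, where 1.77%, 0.216% and 0.00799% of all genes passed. At an unadjusted p under 0.05 the counts of members were 2, 2 and 3. They were PER1 and CRY1 in each, with BHLHE40 in the combination. By edgeR p-value PER1 ranked 1953, 365 and 1316 among 12514 genes, CRY1 771, 120 and 229, and BHLHE40 374. The share of all genes under this p was not counted, but the ranks bound it. By the rank of PER1, at least 1953 genes in p38i and 1316 in the combination were under it. In EZH2i at least 365 and fewer than 2027 genes were, as DBP ranked 2027 with an edgeR p of 0.0574. In those comparisons DESeq2 called 0, 1 (CRY1) and 0 members, and 632, 232 and 167 of the 12514 genes tested.

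**Figure D1:**
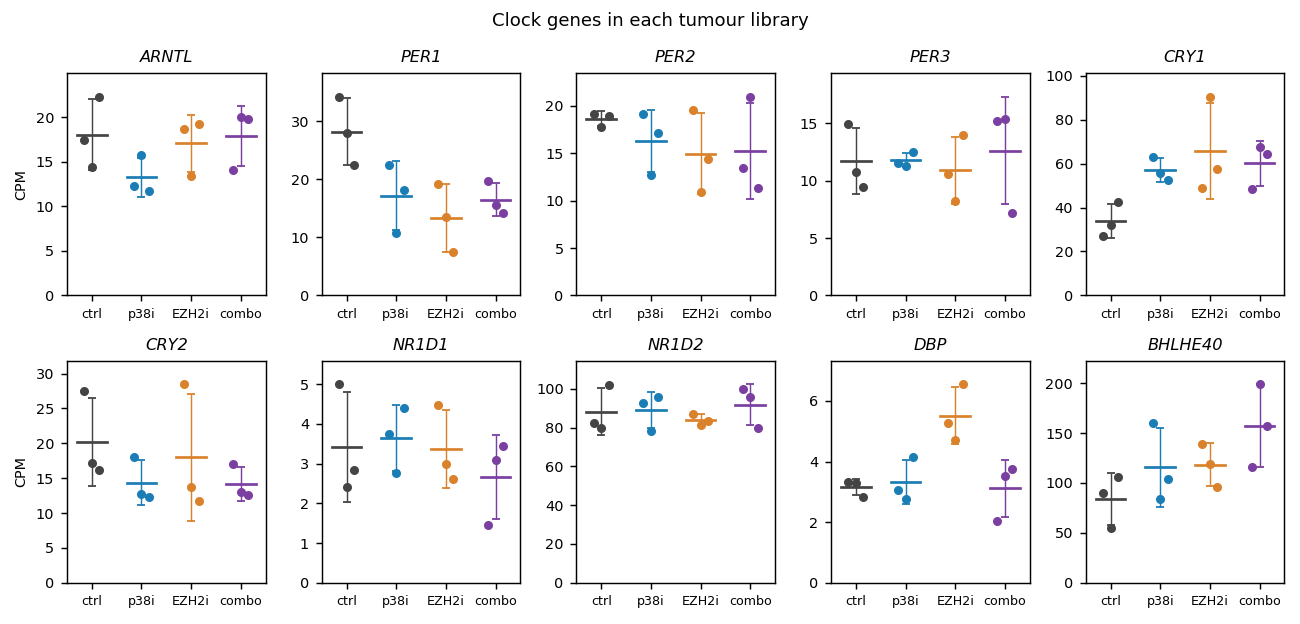
Level of each of the 10 clock genes in CPM (y axis, from 0) in each of the 12 tumour libraries, by group (x axis: control, p38i, EZH2i, combination). Points are libraries, wide bars group means and error bars SD (n = 3); the 9 treated libraries lie above the control libraries for CRY1 and below them for PER1, and the groups overlap for ARNTL, NR1D1 and NR1D2.

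CRY1 is the cryptochrome that represses CLOCK and ARNTL most strongly, late in the cycle. It was at 27.1, 31.8 and 42.4 CPM in control 1-1, 1-3 and 2-1. It was at 63.1, 55.5 and 52.4 CPM in p38i 3-3, col5 and col6, at 48.8, 90.2 and 57.6 CPM in EZH2i 5-3, 5-4 and 6-1, and at 48.4, 67.6 and 64.3 CPM in combination 8-1, 9-1 and 9-2. Every treated library was above every control library. The group means were 33.8 ± 7.87 CPM for control, 57.0 ± 5.51 for p38i, 65.6 ± 21.8 for EZH2i and 60.1 ± 10.3 for the combination (SD, n = 3 each). Treated against control, the log2 fold change was 0.84 (SE 0.20, 95% interval 0.41 to 1.27, edgeR adjusted p = 0.0419). Against control the log2 fold change was 0.74 in p38i (adjusted p = 0.115), 0.96 in EZH2i (adjusted p = 0.119) and 0.82 in the combination (adjusted p = 0.190), all by edgeR. The combination differed from p38i by 0.08 (95% interval -0.41 to 0.57) and from EZH2i by -0.13 (-0.63 to 0.36).

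The call for CRY1 did not hold without control 1-1 (log2 fold change 0.72, adjusted p = 0.213) or without control 1-3 (0.80, adjusted p = 0.203), by the same edgeR test. It was also lost when any p38i library, combination 9-1 or combination 9-2 was left out, with adjusted p from 0.0534 to 0.0793. Without both controls 1-1 and 1-3, an alternative chosen after seeing the data, the difference was 0.50 (adjusted p = 0.878 in edgeR). Within the control group the order of CRY1 levels (1-1, 1-3, 2-1) was the order of the libraries on the first principal component. Genes of the G2 and M phases of the cell cycle differed the same way. All 15 of 15 had a positive difference between treated and control tumours. Of the 15, 2 (CCNB2 and BUB1) passed the test, where 3.08% of all genes passed. The summed level of the 15 was 1560 to 2580 CPM with vehicle, 2510 to 4510 with p38i, 2520 to 3660 with EZH2i and 2450 to 3420 with the combination. Over the alternatives run, 0 to 9 of the 15 passed. Their part in the CRY1 difference was not tested.

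CRY2, the other cryptochrome, was at 27.5, 17.1 and 16.1 CPM in control libraries, 18.1, 12.7 and 12.2 under p38i, 28.5, 13.7 and 11.8 under EZH2i and 17.0, 12.99 and 12.6 under the combination, in the same library order. Control 1-1 and EZH2i 5-3 were high, the other 10 libraries lay between 11.8 and 18.1 CPM, and the groups overlapped. The difference between treated and control tumours was -0.38 on the log2 scale (95% interval -0.94 to 0.17, edgeR adjusted p = 0.413). The sign was thus opposite to that of CRY1, although the interval spans 0.

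PER1 is the period gene known to respond quickly to outside signals. It was at 34.1, 27.9 and 22.5 CPM in control libraries, 22.5, 10.8 and 18.1 under p38i, 19.1, 13.4 and 7.42 under EZH2i and 19.6, 15.6 and 14.1 under the combination. All 9 treated libraries were below the lowest control library, but p38i 3-3 (22.50 CPM, 66 counts) lay below control 2-1 (22.52 CPM, 95 counts) by far less than counting error. Group means were 28.2 ± 5.81, 17.1 ± 5.93, 13.3 ± 5.85 and 16.5 ± 2.85 CPM (SD, n = 3 each). The log2 difference between treated and control tumours was -0.85 (SE 0.25, 95% interval -1.38 to -0.32), and with an adjusted p of 0.069 in edgeR it did not pass the threshold. By group the difference was -0.72 in p38i (adjusted p = 0.242), -1.07 in EZH2i (adjusted p = 0.171) and -0.77 in the combination (adjusted p = 0.261). DESeq2 gave an adjusted p of 0.0368 for treated against control, and without both controls 1-1 and 1-3 the edgeR difference was -0.55 (adjusted p = 0.916).

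PER2, which is required for a stable rhythm, was at 19.2, 17.7 and 19.0 CPM in control libraries, 19.1, 12.7 and 17.1 under p38i, 19.5, 10.9 and 14.4 under EZH2i and 13.5, 20.9 and 11.3 under the combination. The control libraries lay close together inside the range of the treated ones. PER3, the least essential period gene, was at 14.99, 10.8 and 9.48 CPM in control libraries, 11.6, 11.3 and 12.5 under p38i, 10.6, 8.20 and 14.0 under EZH2i and 15.2, 15.4 and 7.22 under the combination. Its groups overlapped too. The differences between treated and control tumours were -0.27 for PER2 (95% interval -0.74 to 0.21) and 0.01 for PER3 (-0.53 to 0.56), with edgeR adjusted p of 0.516 and 0.983. Both intervals span 0, and whether PER1 differed from the other period genes was not tested.

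ARNTL, the activator that sets the loop going, was at 17.5, 14.4 and 22.3 CPM in control libraries, 12.3, 15.7 and 11.7 under p38i, 18.7, 13.4 and 19.2 under EZH2i and 14.1, 20.0 and 19.8 under the combination. The p38i group was lowest, with a mean of 13.3 ± 2.17 CPM against 18.1 ± 3.97 in control (SD, n = 3 each), but p38i col5 was above control 1-3. The difference was -0.45 in p38i (95% interval -0.99 to 0.08, edgeR adjusted p = 0.355), -0.10 in EZH2i (-0.63 to 0.44) and -0.01 in the combination (-0.54 to 0.51). For all treated tumours it was -0.19 (-0.62 to 0.24, adjusted p = 0.625).

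NR1D1 and NR1D2, the REV-ERB receptors, swing widely in rhythmic tissue and repress ARNTL. NR1D2 was at 82.4, 79.9 and 102.1 CPM in control libraries, 92.7, 78.4 and 95.9 under p38i, 87.0, 81.3 and 83.4 under EZH2i and 99.9, 95.5 and 80.0 under the combination. Its highest library was 1.3-fold above its lowest, the narrowest span of the 10 members. The difference between treated and control tumours was -0.002 on the log2 scale with a 95% interval of -0.27 to 0.27, and its sign changed with the scaling (0.05 with library totals alone). NR1D1 was low, with 5 to 18 counts per library. It was at 5.00, 2.40 and 2.84 CPM in control libraries, 3.75, 2.76 and 4.40 under p38i, 4.47, 2.98 and 2.62 under EZH2i and 1.47, 3.08 and 3.45 under the combination, and the groups overlapped. Its difference was -0.06 (-0.86 to 0.75), an interval too wide at this depth to set a moderate change in either direction apart from none.

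DBP, a D-box activator and one of the strongest rhythmic outputs of the clock, had 7 to 19 counts per library. It was at 3.33, 3.30 and 2.84 CPM in control libraries, 3.07, 2.76 and 4.16 under p38i, 5.29, 4.72 and 6.55 under EZH2i and 2.05, 3.52 and 3.77 under the combination. All EZH2i libraries were above all others, with a log2 difference from control of 0.79 (95% interval -0.03 to 1.61, edgeR adjusted p = 0.354). In the combination, which held the same EZH2 inhibitor, the difference from control was -0.01 (-0.86 to 0.84). Combination minus EZH2i was -0.80 (-1.61 to 0.01, adjusted p = 0.991).

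BHLHE40 (DEC1) competes with CLOCK and ARNTL for E-boxes and is induced by many signals. It was at 89.5, 55.2 and 106.2 CPM in control libraries, 159.9, 83.6 and 104.2 under p38i, 139.5, 119.3 and 96.0 under EZH2i and 115.7, 198.8 and 157.5 under the combination. The combination libraries were all above the control libraries, and the single-agent groups overlapped control. The log2 difference from control was 0.91 in the combination (95% interval 0.31 to 1.52, edgeR adjusted p = 0.2001) and 0.63 in all treated tumours (0.11 to 1.14, adjusted p = 0.153). Among hypoxia genes, VEGFA was at 166.1, 122.5 and 194.1 CPM in control and 352.4, 167.8 and 137.3 under p38i. It was at 291.1, 200.6 and 277.6 CPM under EZH2i and 271.6, 522.2 and 330.1 under the combination. VEGFA was thus above control in all EZH2i libraries too, where BHLHE40 overlapped control. SLC2A1, a glucose transporter, rose in treated tumours by 0.61 (edgeR adjusted p = 0.048). CA9, a marker of low oxygen, was at most 2.62 CPM in any library, and NDRG1 differed by 0.43 (adjusted p = 0.302). Of the 12 hypoxia genes tested 10 had a positive difference (median 0.24, against 0.005 over all genes) and ANGPTL4 fell. Neither SLC2A1 nor ANGPTL4 passed without both controls 1-1 and 1-3, and over the alternatives run 0 to 2 of the 12 passed. The summed level of the list was 7340 to 7920 CPM in control, 6350 to 11500 under p38i, 8130 to 12000 under EZH2i and 9120 to 9700 under the combination. The part of these genes in the BHLHE40 difference was not tested.

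**Figure D2:**
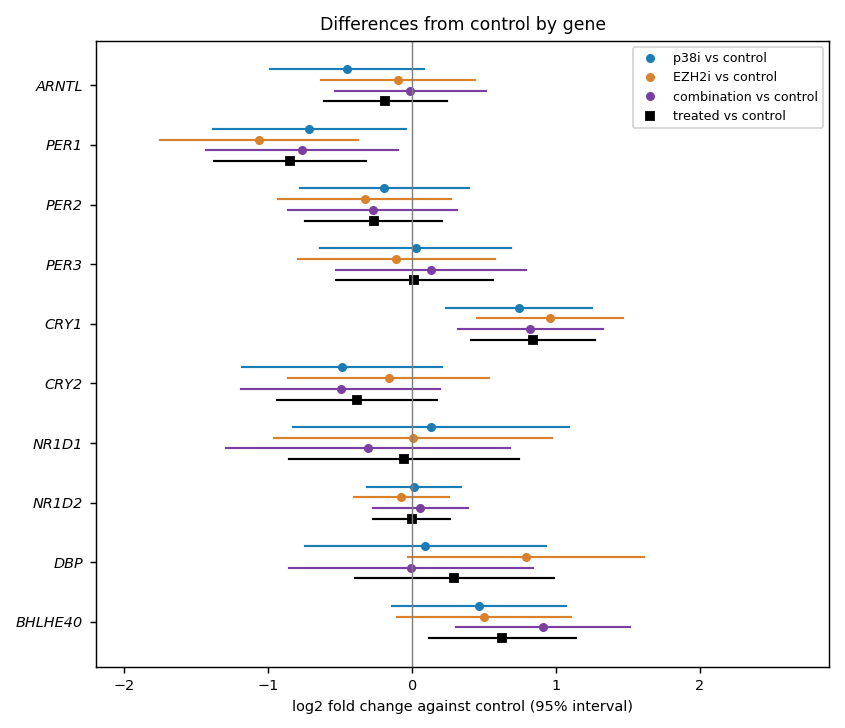
Log2 fold change of each clock gene against control (x axis) with its 95% interval, for p38i, EZH2i, the combination and all treated tumours (colours and symbols), by gene (y axis). For treated against control the intervals of CRY1 (0.41 to 1.27), BHLHE40 (0.11 to 1.14) and PER1 (-1.38 to -0.32) exclude 0 without adjustment, and those of the other 7 genes span it.

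The 2 members whose treated and control libraries did not overlap (CRY1 and PER1, 2 of 10) stand against 6.12% of all genes tested. Against control 2 members did not overlap in p38i, 3 in EZH2i (with DBP) and 3 in the combination (with BHLHE40), where 24.8%, 16.4% and 22% of all genes did not. The median difference of the 10 members between treated and control tumours was -0.03 on the log2 scale, against 0.005 over all genes, and the median size of the difference was 0.28 against 0.25. The group comparisons against control share the control libraries. No member passed in the combination against p38i or against EZH2i by edgeR's quasi-likelihood test, with none at an unadjusted p under 0.05, and 0% of all genes passed in either comparison. DESeq2 called no member in them, and 7 and 1 of the 12514 genes tested.

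The interaction, the combination's difference from control minus the sum of both single differences, passed for no member by edgeR's quasi-likelihood test, where 0.024% of all genes passed, and 2 members had an unadjusted p under 0.05. These were CRY1 and PER1, which ranked 859 and 1459 by edgeR p-value among 12514 genes, so that at least 1459 genes were under 0.05. DESeq2 called no member in the interaction, and 226 of the 12514 genes tested. The interaction was -0.87 on the log2 scale for CRY1 (95% interval -1.58 to -0.17, edgeR adjusted p = 0.271) and 1.01 for PER1 (0.05 to 1.98, adjusted p = 0.353). For both genes the combination thus lay nearer to control than the sum of the single differences. The test did not pass for either.

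Whether control and treated tumours differed in clock phase was described by a contrast of the opposed arms, the mean log2 CPM of PER1, PER2, PER3, NR1D1, NR1D2 and DBP minus that of ARNTL. A later or earlier phase can move both terms in opposite directions, but not every shift changes this contrast. Equal contrasts therefore do not show equal phases. It was -0.14, -0.17 and -0.78 in the control libraries, 0.14, -0.60 and 0.25 under p38i, -0.36, -0.30 and -0.69 under EZH2i and -0.34, -0.54 and -0.87 under the combination. The spread inside the control group was as wide as the distance between groups. Means were -0.37 ± 0.36 for control, -0.07 ± 0.46 for p38i, -0.45 ± 0.21 for EZH2i and -0.58 ± 0.27 for the combination (SD, n = 3 each). The 9 treated libraries averaged -0.37. The within-group SD, pooled over the 4 groups with control among them, was 0.34. It describes the spread of single libraries, not the error of a difference between group means, which is smaller. Treated minus control was -0.001, and leaving out 1 library at a time it ran from -0.21 to 0.11, in each case less than the within-group SD of 0.34. With PER1 left out of the day arm the difference was 0.14.

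A wider contrast added TEF and CIART to the day arm, and to ARNTL its partners NPAS2 and CLOCK and the D-box repressor NFIL3 as the night arm. HLF, a relative of DBP, was too low to be tested, at no more than 1.75 CPM. The wider contrast was -1.91 ± 0.35 for control, -1.92 ± 0.45 for p38i, -2.21 ± 0.19 for EZH2i and -2.23 ± 0.37 for the combination (SD, n = 3 each). Treated minus control was -0.22, smaller in size than the within-group SD of 0.35, which again describes single libraries and not the error of this difference. Leaving out 1 library at a time it ran from -0.38 (without control 2-1), which is past that SD, to -0.03 (without control 1-1). The value of the wider contrast therefore rests on which control libraries are kept, and its sign was negative with any 1 library left out. Control 2-1 by itself was at -2.23, below the treated average of -2.12. With no hour of collection in the labels, group and time of collection cannot be told apart either.

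**Figure D3:**
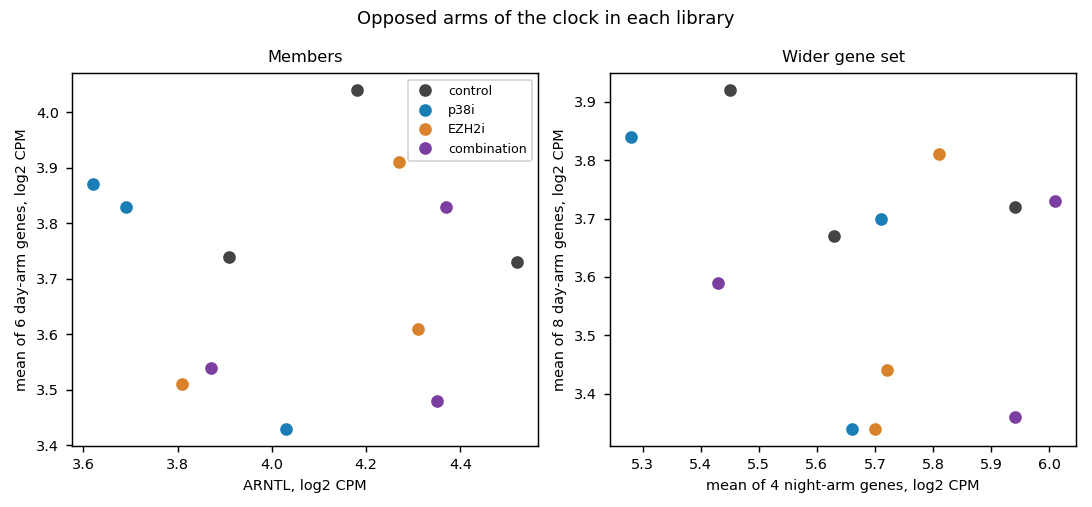
Each point is 1 tumour library, coloured by group. Left, mean log2 CPM of the 6 day-arm members (y axis) against ARNTL (x axis); right, the wider sets of 8 and 4 genes. The groups are intermingled in both panels.

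No relation of ARNTL with the other members across the 12 libraries passed a test. Pearson's r of log2 CPM with ARNTL ran from -0.16 (PER1) to 0.20 (BHLHE40) over the 9 members. Spearman's rho ran from -0.105 (CRY2) to 0.28 (PER2). No permutation p passed, with adjusted values of 0.996 for each r and 0.957 for each rho over the 9 pairs. For NR1D1, NR1D2 and DBP, the genes most opposed to ARNTL in a running clock, r was 0.03, 0.002 and 0.17 (permutation p of 0.921, 0.996 and 0.597), and rho was -0.05, 0.06 and 0.08. Without the 2 libraries farthest from the ARNTL median (p38i 3-3 and p38i col6), r was 0.43, 0.34 and 0.23, with adjusted permutation p from 0.681 to 0.947. As deviations from the group means r was 0.28, 0.01 and 0.29 (adjusted permutation p = 0.975 for each). The within-group value farthest from 0 was that of PER1, r = -0.51, in the direction of opposition (permutation p = 0.153, adjusted 0.975). No pair passed the test in either form, which does not show that opposition was absent.

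The counting error behind each gene limits this reading. The variance of NR1D1 over the 12 libraries was 0.946 times that of counting alone, and that of DBP was 1.18 times, so that nothing beyond counting error was seen for these 2 genes. For 1412 genes with a mean of 8 to 16 counts, the median ratio was 2.12. NR1D2 had 191 to 434 counts per library and a ratio of 3.0, below the median of 4.6 over all genes. The ratio was 2.65 for ARNTL, 2.69 for PER2, 2.22 for PER3 and 5.43 for CRY2. It was 8.37 for PER1, 17.7 for CRY1 and 47.1 for BHLHE40, the 3 members that also differed most between treated and control tumours. The ratio over all libraries includes the difference between groups. Within groups it was 4.63, 9.06 and 31.0 for these 3, against a median of 3.81 over all genes. Their mean counts also differed (62.5, 187 and 407), and the ratio depends on the mean count.

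Other transcription factors of the loop were read from a list of 12, of which 10 could be tested. In treated tumours 1 was lower and none higher, where 3.08% of all genes passed. That gene was BHLHE41 (DEC2), the paralogue of BHLHE40 and likewise a repressor at E-boxes. It was at 114.9, 93.7 and 102.6 CPM in control libraries, 45.7, 44.4 and 34.7 under p38i, 71.2, 36.5 and 39.7 under EZH2i and 59.5, 68.5 and 43.9 under the combination. All 9 treated libraries were below all control libraries, where 6.12% of all genes did not overlap. The log2 fold change of BHLHE41 was -1.08 (SE 0.18, adjusted p = 0.00873 in edgeR). The change was -1.32 in p38i (adjusted p = 0.0203), while the differences were -1.08 in EZH2i (adjusted p = 0.0749) and -0.85 in the combination (adjusted p = 0.180). Without both controls 1-1 and 1-3 the difference between treated and control tumours was -1.09 and did not pass the test (adjusted p = 0.628 in edgeR); it also did not pass without control 1-1, without control 1-3 or without both p38i columns not tied to 1 sample. The signs of the 2 paralogues were thus opposite, with 0.63 for BHLHE40 not past the threshold.

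The partners of ARNTL did not pass. CLOCK differed by -0.24 between treated and control tumours (edgeR adjusted p = 0.248) and NPAS2 by 0.07 (adjusted p = 0.920). NPAS2 ranged from 35.4 to 121.8 CPM within the control group alone. ARNTL2, the paralogue of ARNTL, differed by 0.60 (adjusted p = 0.180), and RORA, the activator at the ROR element, by 0.62 (adjusted p = 0.064). For RORA all 9 treated libraries (25.5 to 40.8 CPM) were above all control libraries (18.7 to 24.1 CPM), where 6.12% of all genes did not overlap. NFIL3, the D-box repressor, differed by 0.36 (adjusted p = 0.522), TEF by -0.43 (adjusted p = 0.366) and CIART by -0.15 (adjusted p = 0.809). The median of the 10 was -0.04. Signs of NPAS2, ARNTL2 and CIART changed when control libraries were left out.

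Kinases, ubiquitin ligases and the deacetylase that set the stability of the clock proteins were read from a list of 13. None of the 12 tested passed in treated tumours by edgeR (FBXL21 was at 0 in all libraries), where 4 had an unadjusted p under 0.05. In that comparison at least 1628 of 12514 genes were under 0.05, as BHLHE40 held rank 1628 with an edgeR p of 0.0199. DESeq2 called none of the 12 in treated tumours, and 847 of all genes. The median was 0.24, against 0.005 over all genes. CSNK1D and CSNK1E, the kinases that mark PER proteins for decay, differed by -0.17 and -0.10 (edgeR adjusted p of 0.377 and 0.718).

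Of 12 genes often driven by the clock, 4 fell in treated tumours (LGALS9, GPCPD1, KLF9 and TSC22D3) and none rose, with a median of -0.10, where 3.08% of all genes passed in either direction. Without both controls 1-1 and 1-3 none of the 12 passed and the median was -0.45, and over the alternatives run 0 to 4 passed. Among these, KLF9 and TSC22D3 are also glucocorticoid-responsive. In a list of 12 glucocorticoid-responsive genes, which holds PER1 itself, 11 were tested, 4 fell (FKBP5, TSC22D3, KLF9 and ANGPTL4) and 1 rose (SGK1), with a median of -0.85. Of the 11, 4 had a positive difference: SGK1 (0.68), DUSP1 (0.42), ERRFI1 (0.23) and NFKBIA (0.06). FKBP5, a cochaperone of the glucocorticoid receptor, was at 192.7, 142.0 and 84.6 CPM in control and at 17.1 to 58.2 CPM in treated libraries. TSC22D3 (GILZ) was at 747.6, 352.8 and 345.3 CPM in control and at 86.1 to 265.8 CPM in treated libraries. KLF9 was at 181.9, 179.8 and 101.4 CPM in control and at 24.6 to 76.4 CPM in treated libraries. For all 3, as for PER1, the treated and control libraries did not overlap, control 1-1 was highest and control 2-1 lowest of the controls. Of all genes, 6.12% did not overlap between treated and control libraries. FKBP5 fell by 2.06 on the log2 scale (edgeR adjusted p = 0.00398) and KLF9 fell by 1.56 (adjusted p = 0.00873). TSC22D3 fell from a mean of 481.9 ± 230.1 CPM (SD, n = 3) to 173.2 ± 67.3 (SD, n = 9), with an adjusted p of 0.0332. Of 21 alternatives, FKBP5 passed in 20, KLF9 in 17 and TSC22D3 in 11. KLF9 did not pass without control 1-1, without control 1-3 or without both p38i columns not tied to 1 sample. TSC22D3 did not pass in these either, nor with no filter on low counts or without p38i 3-3, p38i col6, EZH2i 6-1, combination 9-1 or combination 9-2. Without both controls 1-1 and 1-3 no gene of the list passed, and the median was -0.55; over the alternatives run 0 to 7 genes passed. The part of glucocorticoid response in the PER1 difference was not tested.

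**Figure D4:**
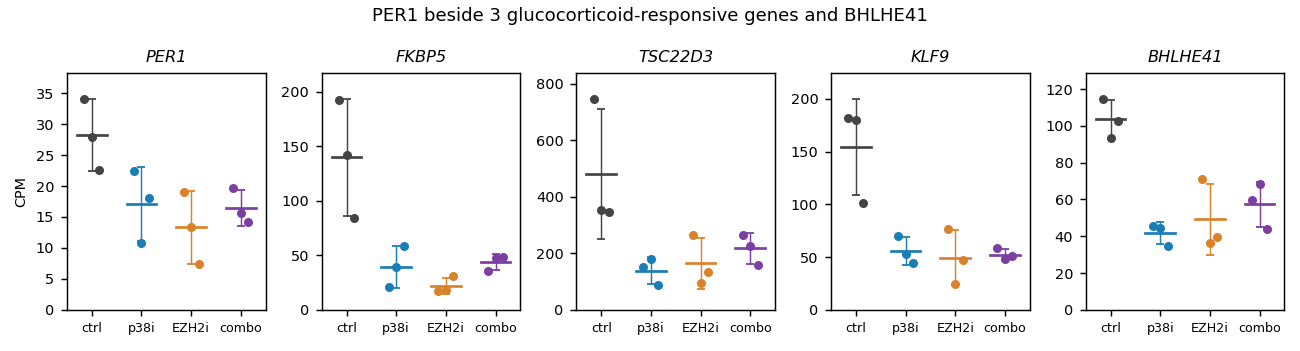
Level in CPM (y axes, each from 0) of PER1, of FKBP5, TSC22D3 and KLF9, and of BHLHE41 in each library by group (x axis); points are libraries, wide bars means and error bars SD (n = 3). In each of the 5 panels the 3 control libraries lie above the 9 treated ones, and for PER1 by the smallest margin.

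The genes most like each member over the 12 libraries were sought among 9049 genes with a mean of at least 10 CPM, by Pearson's r of log2 CPM, as a description. For CRY1 they were VTA1 (r = 0.968) and PUM2 (0.959), for PER1 VPS53 (0.92) and KIF3B (0.891), and for CRY2 PSAP (0.961) and PIP5K1C (0.94). For BHLHE40 they were DUSP1 (0.895) and VEGFA (0.88), and for ARNTL BDNF-AS (0.918) and ACADSB (0.915). For NR1D2 they were MORF4L1 (0.843) and SHFM1 (0.831), for PER2 ZNF721 (0.87) and VPS13B (0.814), and for PER3 PIAS2 (0.808) and F11R (0.789). DBP was nearest to CPEB3 (0.878) and MARK2 (0.842), and NR1D1 to MTRF1L (0.741) and RRP8 (0.736). Each r is the highest of many and shares library depth and scaling. Between members, r ran from -0.684 (PER1 with CRY1) to 0.7 (PER1 with CRY2).

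In the GENCODE 29 annotation, exons of NR1D1 overlap those of THRA on the other strand by 263 bases, those of DBP overlap SPHK2 by 377 and those of PER3 overlap UTS2 by 868. Mean counts per library were 83.3 for THRA, 69.2 for SPHK2 and 10.7 for UTS2. The use of strand in the counting is not given in the sources used here, so that reads of these pairs may not be told apart. This bears most on NR1D1 and DBP, with means of 10.8 and 12.4 counts.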

How the data were processed

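RNA was measured in 12 tumours of 4 groups. Per the submitters' processing notes, the tools were Trim Galore 0.5.0 (trimming) and STAR 2.6.0 (alignment), and the build was hg19. The counting program and its use of strand are not given in the sources used here, and per the labels' protocols both a SMARTer and a QuantSeq kit are named. The authors deposited raw counts per gene symbol, whole numbers, with 1 column per library; 3 lines without a gene name, all at 0 counts, were not used. Columns were matched to samples by the header names that the labels give. The p38i columns headed 5 and 6 could not be tied to 1 sample each and are called col5 and col6. Other libraries carry the numbers of their titles.

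Genes were filtered with filterByExpr (12514 kept) and scaled by TMM in edgeR 4.0.16 (R 4.3.3). A quasi-likelihood model with 1 term per group and the robust option was fitted to all 12 libraries, and two-sided tests were adjusted by the Benjamini-Hochberg method. SEs were derived from the F statistics. Log2 CPM used a prior count of 2. Permutation tests of correlations used 100000 resamples (two-sided, numpy 2.4.6), with ranks for rho from scipy 1.17.1. The code was tested on simulated data. Alternatives were DESeq2 1.42.0, limma-voom (limma 3.58.1), other scaling and filters, and leaving out libraries.

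The members, lists and tests were chosen with earlier results of these data known. Named were all 10 members, 8 further clock factors, listed genes that passed, FKBP5, TSC22D3, KLF9, VEGFA, CA9 and NDRG1, and the 2 genes most like each member; RORA, CSNK1D, CSNK1E and TIMELESS were named after their values were seen. Nothing says that replicates came from separate experiments, so p-values measure the spread between these tumours.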

Additional observations from a re-analysis of the deposited data

How the results depend on the processing

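The count of members past the threshold was 1 (CRY1) for treated against control, 2 (CRY1 and PER1) with DESeq2 and with no filter on low counts, 0 without both p38i columns not tied to 1 sample, and 0 without both controls 1-1 and 1-3. Leaving out 1 library at a time it ran from 0 to 2. It was 2 without control 2-1 or EZH2i 5-3. For EZH2i against control it was 0, and 1 (CRY1) with DESeq2 and with no filter. Those 2 runs called 232 of 12514 and 114 of 21125 genes. The other counts of members and both phase contrasts stayed within 1.5 times or 1 SD of their values under the alternatives run. The phase contrasts were not run without both controls 1-1 and 1-3. Control 2-1, the control then left, was at -0.78 in the contrast of members and -2.23 in the wider one. The treated libraries averaged -0.37 and -2.12, above control 2-1 in both. NR1D1 and DBP were not tested with a minimum mean of 5 CPM. Over all genes, calls for treated against control were 386 with edgeR and 847 with DESeq2. Signs of small differences between treated and control tumours changed, and the cause was not tested. With 1 library left out, PER3 ran from -0.12 to 0.22, ARNTL from -0.32 to 0.0083, NR1D1 from -0.24 to 0.28, NR1D2 from -0.063 to 0.12, NPAS2 from -0.26 to 0.56 and CIART from -0.28 to 0.16. NR1D2 was 0.051 with library totals alone, 0.0025 with no filter and 0.032 without both p38i columns. Without both controls 1-1 and 1-3, NR1D1 was 0.15, NPAS2 -0.59, ARNTL2 -0.063 and TIMELESS -0.10. No paired analysis was possible because the groups share no replicate numbers. The 5 to 19 counts of NR1D1 and DBP limit their differences.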
